A study of Amphimedon queenslandica with 124 samples.

Results

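A set of 120 gene models of the sponge Amphimedon queenslandica stood high in cleaving embryos and again in adults, and low from the cloud stage to the swimming larva. They were chosen out of 36868 gene models in the table, of which 33001 had at least 1 count. Members were chosen by their measured levels at cleavage, in adults and from cloud to the larva. The cleavage and adult means of log2(CPM + 1), where CPM is counts per 1000000 counts of the library, had to lie within 1 of each other. The lower of these means, minus the highest of the cloud, spot, late spot, ring, late ring and free-swimming means, gave a margin, which was above 0 for 4255 gene models, and the 120 largest margins were kept. These members are therefore high at both ends of life by selection, and their levels in those stages are a description with no test. The brown stage, which follows cleavage, and the stages from settlement to the juvenile were not used in the choice.

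In animals the cleaving embryo carries transcripts that the mother loaded into the egg, and these are broken down as the embryo's own genome takes over. Amphimedon queenslandica broods its embryos in chambers within the mother and releases swimming larvae, which settle and reorganise their tissues at metamorphosis into a filter-feeding body. The adult sponge holds choanocytes, which line the feeding chambers, pinacocytes, which form its epithelia, and archaeocytes, amoeboid stem cells that are also a source of the germ line. The file gives gene models by identifier only and the gene name table at hand matched 0 of the 120, so no gene name or role is given below.

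The series profiled 124 individuals by CEL-seq, in which reads come from the 3′ ends of polyadenylated transcripts, and the labels name a stage for 123 of them. Each of the 7 embryo stages, which run in the order cleavage, brown, cloud, spot, late spot, ring, late ring, had 7 individuals. Free-swimming larvae numbered 13. Of the later stages, settlement had 10 individuals, mat-formation 34, chamber-formation 3, tent-pole-formation 6, the juvenile 5 and the adult 3. All were untreated animals collected at Heron Island, with no strain or genotype given, and the labels do not say which part of an adult was taken. Totals ran from 1158 to 3059409 counts per library. From settlement on, libraries numbered 1 to 100 were mostly shallow, so the 24 libraries numbered 101 to 124 gave the levels and tests of the later stages, as in the choice of members. All libraries from cleavage to free-swimming carry numbers up to 100 and all adult libraries numbers above it. The number set and the stage therefore cannot be told apart between adults and any of those stages. In whole animals, fewer cells of a type and less RNA per cell cannot be told apart. Spread between individuals is what the p-values rest on.

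The 120 members averaged 4.85 ± 0.52 on the log2(CPM + 1) scale at cleavage (SD over 7 libraries) and 4.87 ± 0.07 in the 3 adults. From cloud to free-swimming the stage averages lay between 1.31 and 1.61. As a share of all counts in a library, the members made up 0.435% to 1.17% at cleavage, with a median of 0.741%, and 0.563% to 0.687% in adults, against a mean of 0.053% at the cloud stage. A member's mean was 35.4 CPM at cleavage in the median member (6.30 to 320.5 CPM) and 32.2 CPM in adults (5.40 to 357 CPM). Over the 48 libraries from cloud to free-swimming the median member averaged 2.89 CPM, with a range from 0 to 37.0 CPM.

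**Figure D1:**
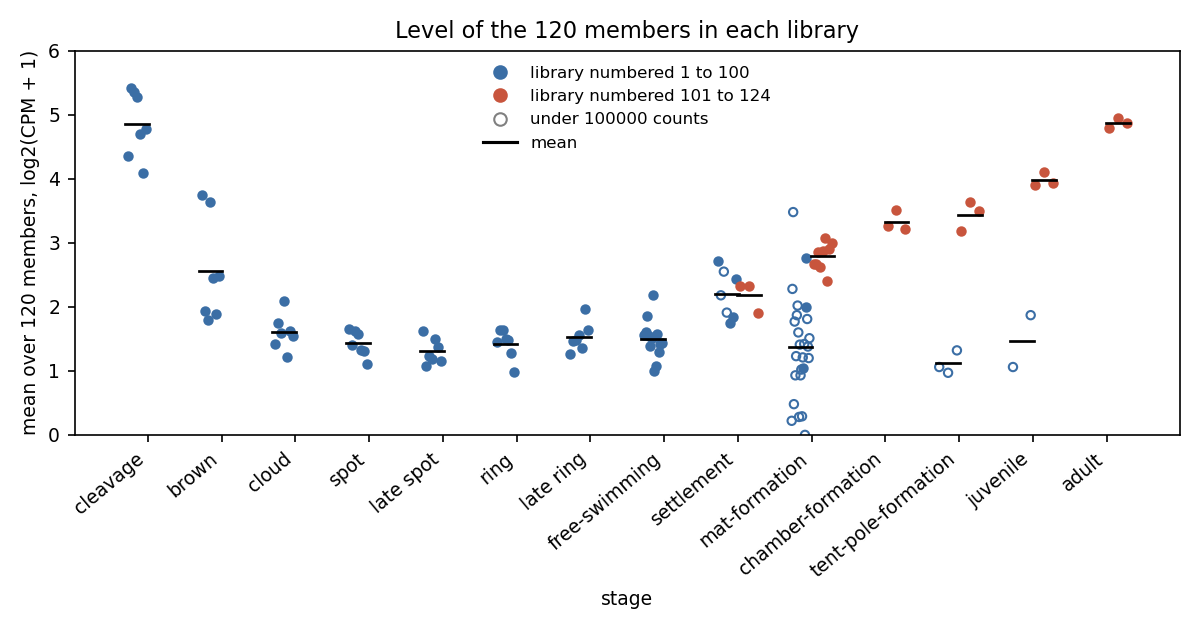
Mean over the 120 members of log2(CPM + 1) in each library (y axis) by stage (x axis), in blue for libraries numbered 1 to 100 and in red for 101 to 124, open circles for libraries under 100000 counts and black lines for means. The cleavage and adult means, 4.85 and 4.87, stand above all stages between, and the red libraries climb from 2.19 at settlement to 3.98 in juveniles.

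Within the members, 47 had their highest mean of the 14 stages at cleavage, 40 in adults, 22 in juveniles, 5 at tent-pole-formation, 4 at chamber-formation and 1 each at mat-formation and brown. The adult mean was above the cleavage mean for 63 members. All 3 adults held a count of 119 members, and all 7 cleavage libraries a count of 88. One member, Aqu2.1.36611_001, had 0 counts in the 48 libraries from cloud to free-swimming, and another, Aqu2.1.14742_001, had 2 counts. Both were singled out after their values were seen. The median SD over the members on the log2 scale was 1.22 in the 7 cleavage libraries and 0.77 in the 3 adults. Cleavage totals ran from 214376 to 1632860 counts and adult totals from 1061164 to 1829945. The part of depth in this spread was not tested. The 3 cleavage libraries with fewer than 500000 counts, replicates 2, 3 and 4, had the highest member averages, 5.42, 5.36 and 5.27, against 4.09 to 4.77 in the other 4. In those 3 libraries 93 of the 120 members averaged higher. The part of depth in this difference was not tested. With those 3 libraries left out of the rule, a choice made after the data were seen, 80 of the 120 members were chosen again.

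The widest margin, 5.38, belonged to Aqu2.1.12951_001. It ran from 56.0 to 415 CPM over the 7 cleavage embryos with a median of 168 CPM, and the 3 adults had 130, 930 and 11.0 CPM. Thus every cleavage embryo was high, while 1 adult lay far above and another far below the cleavage range. From spot to free-swimming the median library of each stage had 0 CPM. Next came Aqu2.1.27231_001 with a margin of 5.31. Its cleavage libraries ran from 12.7 to 484 CPM with a median of 344 CPM, and the adults had 159, 47.1 and 218 CPM. Its highest library from cloud to free-swimming had 13.3 CPM, just above the lowest cleavage embryo, so the groups overlapped there.

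At the threshold, the members ranked 119 and 120, Aqu2.1.16129_001 and Aqu2.1.32264_001, had margins of 1.851 and 1.845. The gene models ranked 121 and 122, Aqu2.1.33561_001 and Aqu2.1.28838_001, had margins of 1.845 and 1.83 and were left out. Aqu2.1.32264_001 shows what a narrow margin looks like at a high level. Its median was 104 CPM at cleavage and 94.2 CPM in adults, and from cloud to free-swimming its stage medians lay between 13.5 and 23.6 CPM.

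**Figure D2:**
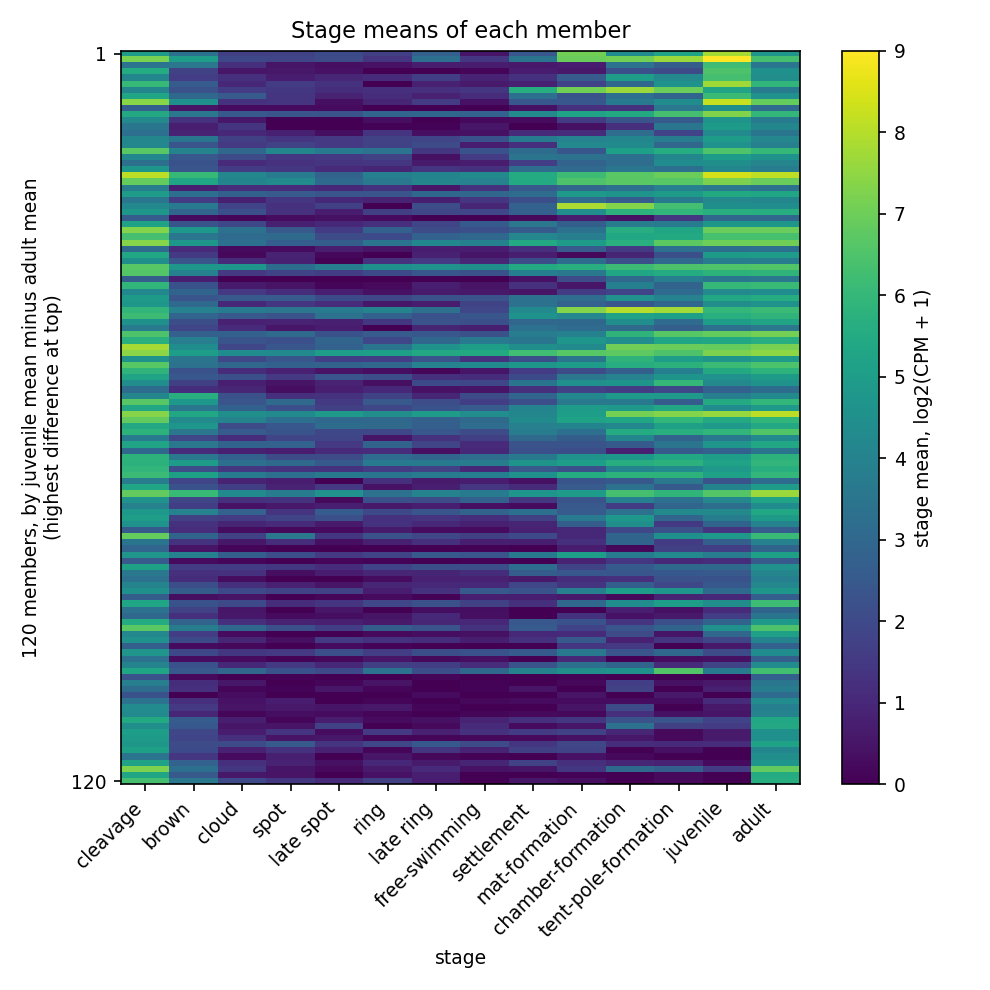
Stage means of log2(CPM + 1) as colour for each of the 120 members (rows, sorted by juvenile mean minus adult mean) over the 14 stages (columns), with libraries 101 to 124 from settlement on. The cleavage and adult columns are brighter than the cloud to free-swimming columns in every row by selection. Juveniles match adults within 1 in 61 rows and lie more than 1 below adults in the 48 rows at the bottom.

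At brown, most members stood well below their cleavage level. The brown mean was lower than the cleavage mean for 118 of the 120 members, lower by more than 1 on the log2 scale for 111 and by more than 2 for 76, with a median difference of -2.32. Since members were chosen for high cleavage values, a drop away from cleavage is partly built into the choice and was given no test. For 90 members the brown mean was still above every mean from cloud to free-swimming. In 12 members the brown mean lay nearer to the cleavage mean than to the highest of those later means. Members were also chosen for low means from cloud to free-swimming, so standing above those means is partly built in as well. All 7 brown libraries were below all 7 cleavage libraries for 23 members. These brown counts were not made over all gene models, so how usual they are is not known.

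The lowest brown levels relative to cleavage belonged to Aqu2.1.12951_001 and Aqu2.1.34319_001. The former ran from 2.05 to 68.3 CPM at brown with a median of 3.52 CPM, so that only the upper end of the brown libraries reached the lowest cleavage embryo, at 56.0 CPM. Aqu2.1.34319_001 had 27.0 to 356 CPM at cleavage with a median of 197 CPM, and 0 to 79.3 CPM at brown with a median of 4.67 CPM, so the 2 stages overlapped at the edges. Going the other way, Aqu2.1.35250_001 had 0 to 58.4 CPM at cleavage with a median of 18.4 CPM and 16.3 to 112 CPM at brown with a median of 62.6 CPM. It is the member with its peak of the whole life cycle at brown. The other member with a higher brown mean, Aqu2.1.35031_001, had 0 to 49.0 CPM at cleavage and 0 to 240 CPM at brown, with medians of 12.9 and 17.1 CPM.

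The 7 brown embryos were not alike. Replicates 1 and 4 averaged 3.75 and 3.64 over the members on the log2(CPM + 1) scale, and the other 5 averaged 1.79 to 2.48. One of these 2 embryos held the highest brown value of 93 of the 120 members, and for 55 members both were above all of the other 5. The same counts were not made over other gene models, so they are not shown to be particular to the members. Replicates 1 and 4 also resembled cleavage in the rest of the transcriptome. Over 6676 gene models that are not members and had at least 1000 counts in all, the rank correlation across gene models with the cleavage mean was 0.78 for replicate 1 and 0.837 for replicate 4. It was 0.573 to 0.743 for the other 5, and with the cloud mean it was 0.653 and 0.628 for replicates 1 and 4 against 0.703 to 0.872. Gene models are not independent replicates, so these correlations describe 7 libraries and carry no p. The part of this likeness to cleavage in the members' brown level was not tested.

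**Figure D3:**
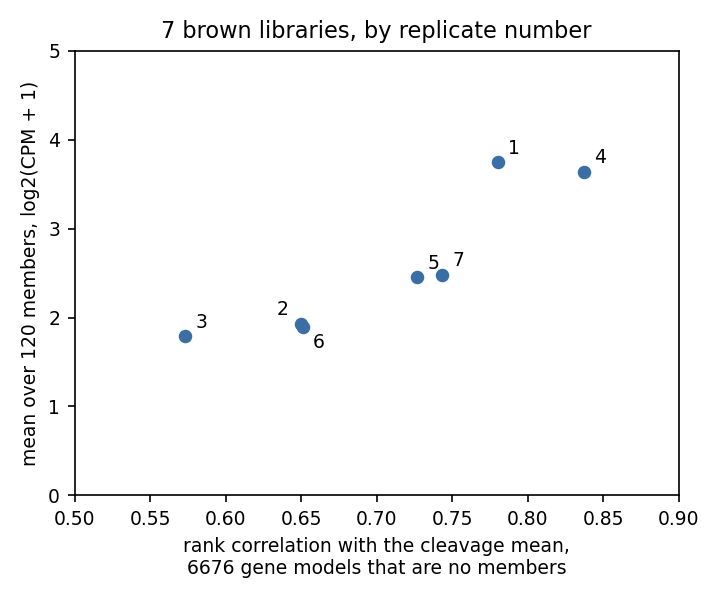
Mean of log2(CPM + 1) over the 120 members (y axis) against the rank correlation with the cleavage mean over 6676 gene models that are not members (x axis) for the 7 brown libraries, labelled by replicate number. Replicates 1 and 4 lie at the upper right, with member averages of 3.75 and 3.64.

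From settlement to the juvenile the stage mean of the members' average was higher at each stage in turn, though chamber-formation and tent-pole-formation overlapped. In the libraries numbered 101 to 124 their average on the log2(CPM + 1) scale was 2.19 ± 0.24 (SD) in the 3 settlement libraries and 2.79 ± 0.21 in the 9 of mat-formation. It was 3.33 ± 0.15 in the 3 of chamber-formation, 3.44 ± 0.23 in the 3 of tent-pole-formation and 3.98 ± 0.10 in the 3 juveniles. Their share of counts was 0.0857% to 0.118% in settlement libraries and 0.191% to 0.282% in those of mat-formation. It was 0.307% to 0.345% in chamber-formation libraries, then 0.342% to 0.384% in tent-pole-formation libraries and 0.528% to 0.595% in juveniles. The ranges of these 5 stages touched only between chamber-formation and tent-pole-formation. Members were chosen for a high adult level, and the juvenile is the stage next to the adult. They were also chosen for a low free-swimming level, and settlement is the stage next to the larva. A rise from settlement towards the juvenile is therefore not independent of the choice at either end. The calls and shares of members given below carry this limit.

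Of the 120 members, 91 could be tested, and 48 rose from settlement to the juvenile and 0 fell, by edgeR's quasi-likelihood test at a Benjamini-Hochberg adjusted p under 0.05. These 48 are 40.0% of all members and 52.7% of those tested, and among all 10182 gene models tested, 13.8% rose and 11.2% fell. A member without enough counts to be tested is one that did not stand high in these stages, so the share of tested members is given for scale and supports nothing. At an unadjusted p under 0.05, 60 members were higher in juveniles and 0 were lower, and DESeq2 called 56 higher and 0 lower. Over all 10182 gene models tested, 3571 had an unadjusted p under 0.05 in either direction by the edgeR test. DESeq2 called 1650 of them higher and 1265 lower. The filter on low counts removed 29 of the members, which averaged 0.038 to 4.70 CPM over the 21 libraries. With no filter, 44 of the 120 members and 1415 of the 28985 gene models fitted rose, and the median log2 fold change was 1.88 over the 120 members and 0 over the 28985 gene models fitted. Every juvenile library was above every settlement library for 71 of the 120 members (59.2%), against 13.0% of the 28985 gene models. The 48 that rose did so by 0.81 to 8.23 on the log2 scale, with a median of 3.08.

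Aqu2.1.27571_001 had 0 counts in all 3 settlement libraries and 36.7, 21.3 and 31.8 CPM in juveniles. The groups did not overlap, and pooled over each stage the juvenile level was at least 42.4-fold higher than a floor of 3 counts over the settlement libraries. Its adjusted p was 0.00143 by edgeR's quasi-likelihood test, and adults had 19.7, 13.2 and 17.5 CPM. Aqu2.1.33558_001 had 1.57, 1.25 and 0 CPM at settlement and 0.701 to 11.6 CPM over the 9 mat-formation libraries, with a median of 1.69 CPM. It then had 4.31, 13.7 and 5.47 CPM at chamber-formation, 14.3, 22.2 and 37.4 CPM at tent-pole-formation and 325, 147 and 194 CPM in juveniles. Mat-formation overlapped with both settlement and chamber-formation, the later groups did not overlap with each other, and the adults, at 53.0, 55.6 and 71.7 CPM, were below every juvenile. The log2 fold change from settlement to the juvenile was 7.53 (SE 0.90, adjusted p = 4.53e-06, edgeR quasi-likelihood). By counts alone, 966 against 4, the ratio of CPM was 234 with a 95% interval of 91.3 to 862, which covers counting error only.

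Aqu2.1.27231_001, the member with the second margin, had 2.35, 8.14 and 4.09 CPM at settlement and 181, 381 and 410 CPM in juveniles. The groups were wide apart, with a log2 fold change of 5.71 (SE 0.98, adjusted p = 0.000172, edgeR quasi-likelihood). Between them, the tent-pole individuals had 2.53, 121 and 20.6 CPM, so that 1 remained at the settlement level. The member with the largest margin did not follow. Aqu2.1.12951_001 had 1.47, 3.55 and 1.41 CPM in juveniles and did not pass the filter on low counts, while the adults had 11.0 CPM or more.

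**Figure D4:**
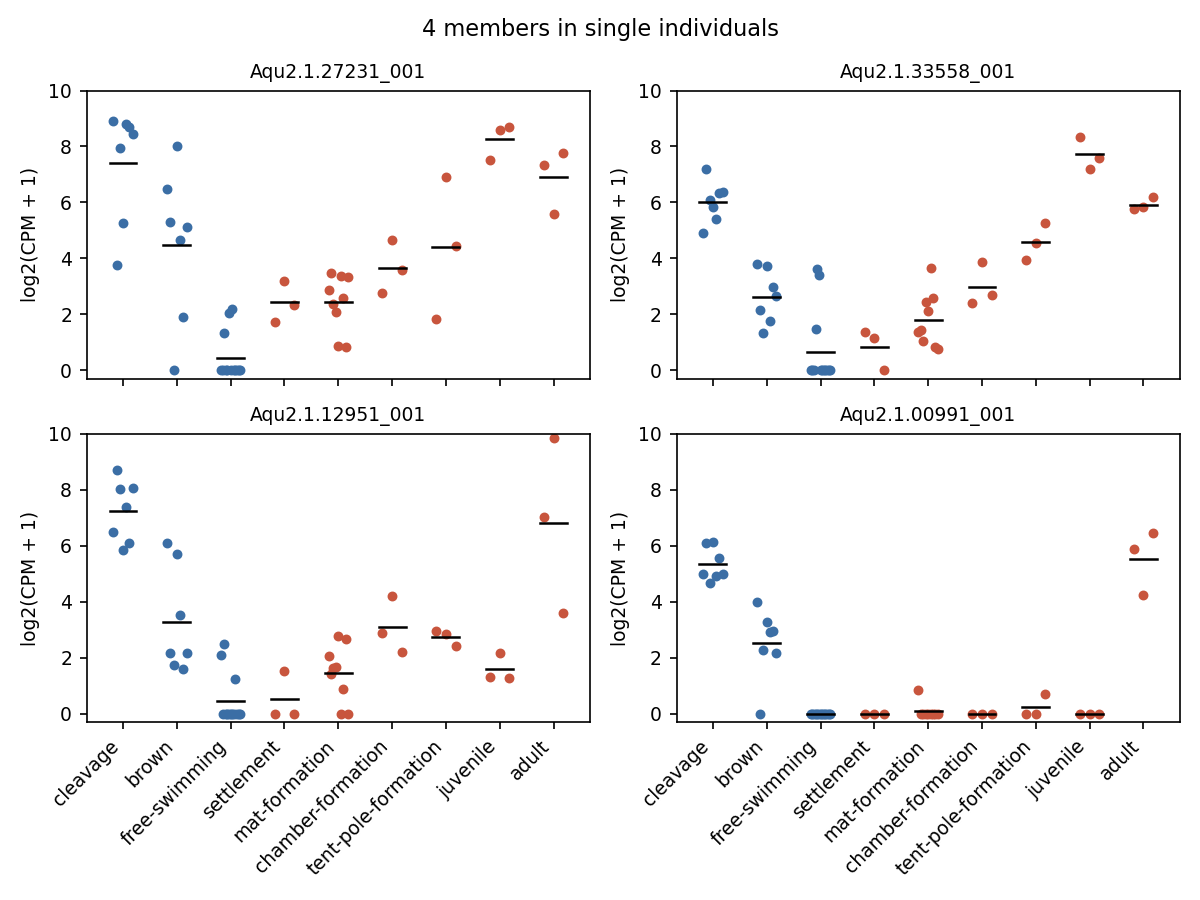
Log2(CPM + 1) of 4 members (panels) in single individuals by stage, blue for libraries numbered 1 to 100 and red for 101 to 124, with black lines for means and the cloud to late ring stages left out. Aqu2.1.27231_001 and Aqu2.1.33558_001 are back at or above the adult level in juveniles, while Aqu2.1.12951_001 and Aqu2.1.00991_001 are high at cleavage and in adults and low in juveniles.

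No single step held as many calls as the whole interval. From settlement to mat-formation, 12 members rose (10.0% of the 120, 13.2% of the 91 tested) and 0 fell, against 8.2% and 11.2% of all gene models tested. The 10.0% is over all members, 29 of them untested, while the 8.2% is over tested gene models only, so these 2 shares are not like for like. This count is not read as a trait of the members. At an unadjusted p under 0.05, 25 members were higher and 2 were lower by the same edgeR quasi-likelihood test, and DESeq2 called 16 higher and 0 lower. Over all 10182 gene models tested, 3229 had an unadjusted p under 0.05 in either direction, and DESeq2 called 1115 higher and 1236 lower. With no filter, 8 of the 120 members and 615 of the 28985 gene models rose at this step. From mat-formation to chamber-formation, 17 members rose (14.2% of the 120, 18.7% of those tested) and 1 fell, against 9.09% and 5.87% of all gene models tested. From chamber-formation to the juvenile, 6 rose (5.00% of the 120, 6.59% of those tested) and 3 fell, against 1.49% and 0.275% of all gene models tested. Of the 48 members that rose between settlement and the juvenile, 9 also rose at the first of these steps, 15 at the next and 6 at the last, while 19 rose at no single step. No member rose at both of the first 2 steps.

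The count of 12 at the first step was 7 without settlement replicate 9 or 10. Over all gene models, the 835 that rose at this step became 435 without replicate 9 and 503 without replicate 10. The count of 17 at chamber-formation was 8 without chamber-formation replicate 2, and over all gene models 926 became 481. At the last step only 1 member rose without chamber-formation replicate 1, against 6 with it, and over all gene models 152 became 65. The count of 48 over the whole interval stayed between 35 and 48 when each of the 12 libraries of settlement, chamber-formation, tent-pole-formation and the juvenile was left out in turn.

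**Figure D5:**
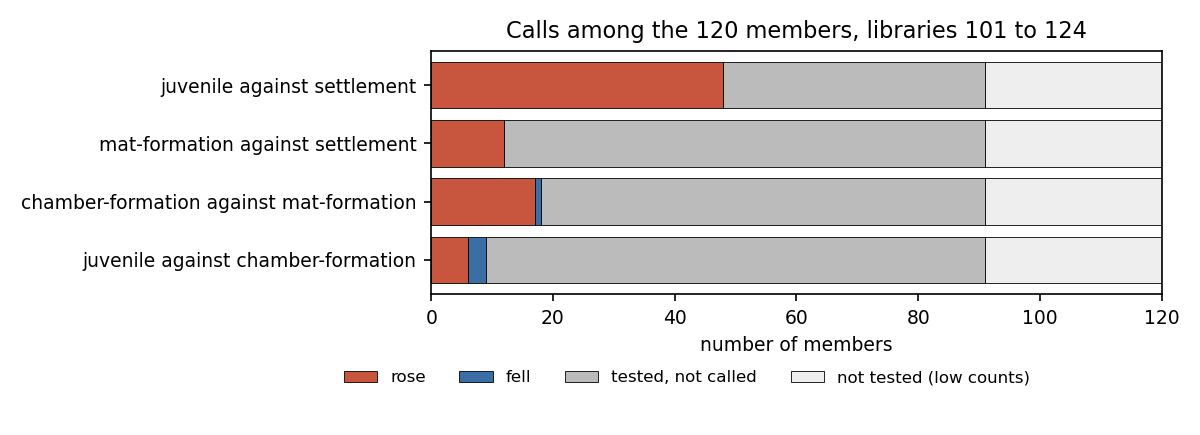
Number of members (x axis) that rose, fell, were tested without a call or were not tested because of low counts, in 4 comparisons of libraries 101 to 124 (y axis). Settlement to juvenile holds 48 that rose and 0 that fell, and the single steps hold 12, 17 and 6 that rose.

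At the first step, Aqu2.1.18584_001 had 3.14, 12.5 and 4.78 CPM at settlement and 148 to 343 CPM over the 9 mat-formation libraries, with a median of 206 CPM. All 9 were above all 3 (log2 fold change 4.86, SE 0.54, adjusted p = 1.23e-06, edgeR quasi-likelihood). It had 227, 110 and 160 CPM at chamber-formation, and it fell again to 32.3, 17.1 and 17.0 CPM in juveniles, below every chamber-formation library, with a log2 fold change of -2.79 (SE 0.51, adjusted p = 0.00486, edgeR quasi-likelihood). Its peak therefore lay within metamorphosis, and 2 of the 3 adults, at 9.84, 84.8 and 9.19 CPM, were near the settlement level.

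Aqu2.1.32505_001 rose, fell and was high again. It had 8.63, 4.38 and 2.05 CPM at settlement and 65.8 to 303 CPM at mat-formation with a median of 137 CPM (log2 fold change 4.76, SE 0.72, adjusted p = 4.97e-05, edgeR quasi-likelihood). At chamber-formation it had 22.3, 6.83 and 47.4 CPM, all below every mat-formation library (log2 fold change -2.90, SE 0.62, adjusted p = 0.0031, edgeR quasi-likelihood). Juveniles had 295, 155 and 235 CPM, and adults 24.0, 12.2 and 49.6 CPM, so that the juveniles stood apart from both neighbours. It is the 1 member that fell at chamber-formation.

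A pair of members shows the step to chamber-formation. Aqu2.1.28942_001 had 8.43 to 37.8 CPM at mat-formation with a median of 14.7 CPM, and 124, 140 and 129 CPM at chamber-formation (log2 fold change 2.53, SE 0.33, adjusted p = 1.77e-05, edgeR quasi-likelihood). Aqu2.1.30487_001 had 5.24 to 19.4 CPM at mat-formation with a median of 10.1 CPM, and 48.1, 38.7 and 100 CPM at chamber-formation (log2 fold change 2.34, SE 0.37, adjusted p = 0.000146, edgeR quasi-likelihood). In neither did the 2 stages overlap.

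From chamber-formation to the juvenile, the widest rises were those of Aqu2.1.33558_001, given above, with a log2 fold change of 4.83 (SE 0.73, adjusted p = 0.000802, edgeR quasi-likelihood), and Aqu2.1.07688_001. The latter had 1.44, 0 and 1.82 CPM at chamber-formation and 38.9, 45.5 and 13.4 CPM in juveniles. These did not overlap (log2 fold change 5.20, SE 1.28, adjusted p = 0.0395, edgeR quasi-likelihood), and the counts, 149 against 3, gave a ratio of 46.0 with a 95% interval of 15.4 to 226. The call was lost in 6 of 18 alternatives, with adjusted p-values up to 0.161, among them without any 1 of the 3 chamber-formation libraries. Besides Aqu2.1.18584_001, Aqu2.1.15486_001 fell, from 156, 272 and 193 CPM to 45.5, 39.0 and 28.3 CPM with no overlap (log2 fold change -2.35, SE 0.49, adjusted p = 0.0119, edgeR quasi-likelihood). Its call was lost in 3 of 18 alternatives, without chamber-formation replicate 2 or juvenile replicate 4 or 5, with adjusted p-values up to 0.0761.

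Juveniles had not reached the adult level for all members. In 61 of the 120 the juvenile mean lay within 1 of the adult mean on the log2 scale, in 11 it was higher by more than 1 and in 48 lower by more than 1. It was lower by more than 2 in 25 and by more than 3 in 16. Of the 48 members that rose since settlement, 34 were within 1 of the adult, 10 above and 4 below. The median difference from the adult mean over the members went from -2.75 at settlement to -2.13, -1.40, -1.24 and -0.50 at the 4 stages that follow. The adult values had entered the choice, so these distances carry no test.

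A group of 15 members averaged under 1 CPM in juveniles, 6 of them with no count in any of the 3 juvenile libraries. They were grouped after their values were seen. Their means had a median of 21.4 CPM at cleavage (6.30 to 114.5 CPM), 2.54 CPM at brown (0 to 21.6 CPM) and 22.0 CPM in adults (6.34 to 54.3 CPM). Summed, the 15 reached 267, 515 and 333 CPM in the 3 adults, which each held counts of all 15, and 2.93, 6.51 and 6.36 CPM in the 3 juveniles. At cleavage the sum ran from 248 to 1080 CPM and at brown from 12.3 to 181 CPM. The 15 were picked for low juvenile values among members chosen as high at cleavage and in adults. That every cleavage embryo and every adult was above every juvenile is therefore built into the choice. The labels do not say whether the adults held eggs or brooded embryos.

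Aqu2.1.00991_001 gives the pattern in single individuals and was picked after its values were seen. It had 24.6 to 70.0 CPM at cleavage with a median of 30.7 CPM, and 0 to 14.8 CPM at brown with a median of 6.50 CPM. It had 0 counts in the 13 free-swimming larvae, 2 counts in all over the 21 libraries from settlement to the juvenile and 0 in the 3 juveniles. Adults had 58.5, 17.9 and 86.4 CPM. It was thus detected in every adult and every cleavage embryo, and at or near 0 counts from the larva to the juvenile.

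The order of the identifiers is taken here only as an order of names, and no expected count of near neighbours was computed. Of 119 pairs of members next to each other, 2 had consecutive identifiers in the table and 11 lay within 5 gene models. One run stood out. Aqu2.1.27571_001, Aqu2.1.27576_001, Aqu2.1.27579_001, Aqu2.1.27582_001 and Aqu2.1.27583_001 lay within 13 gene models, and these 5 were the ones among the 13 with a margin above 0. Over the 28 brown and settlement-to-juvenile libraries, which did not enter the choice, their pairwise correlations of log2(CPM + 1) ran from 0.256 to 0.698, as a description. The 28 libraries share the stage order and differ in depth. Whether near-identical copies share reads in this run cannot be told from the file, so values of single gene models there are uncertain.

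The libraries numbered 1 to 100 give a second, shallow view of the later stages. Their mat-formation libraries had a median total of 32170 counts, and the members averaged from 0 to 3.48 in them with a mean of 1.37, below 2.20 at settlement in the same set. In the libraries numbered 101 to 124 the same step went from 2.19 to 2.79. As a share of counts the 7 settlement libraries of the lower numbers held 0.216% to 4.43% with a median of 0.337%, all above the 3 of the higher numbers, and the mat-formation libraries held 0% to 0.798% with a median of 0.307%. The 3 tent-pole-formation libraries of the lower numbers averaged 1.12 on the log2(CPM + 1) scale and the 2 juveniles 1.47, both below settlement, so the climb seen in the higher numbers did not appear on this scale. All 5 were under 100000 counts, and the part of depth was not tested. By share of counts the tent-pole-formation libraries held 0.268% to 0.441%, and the juveniles 0.272% and 0.707%.

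In the lower numbers 692 gene models could be tested for mat-formation against settlement, among them 3 members. By edgeR's quasi-likelihood test 0 members rose and 1 fell, against 0% and 1.45% of all tested, and at an unadjusted p under 0.05 also 0 rose and 1 fell, while DESeq2 called 0 in either direction. The member that fell was Aqu2.1.31965_001, which ran from 0 to 37220 CPM over the 7 settlement libraries with a median of 183 CPM, and from 0 to 1294 CPM at mat-formation with a median of 68.7 CPM (log2 fold change -4.17, SE 0.83, adjusted p = 0.00279, edgeR quasi-likelihood). Settlement replicate 7 alone had 3.72% of its counts on this gene model, against 0% to 0.103% in the other 6. Without that library the log2 fold change was -0.13 and the call was lost.

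In the higher numbers the same member went the other way. Aqu2.1.31965_001 had 5.49, 15.6 and 11.6 CPM at settlement, 34.6 to 304 CPM at mat-formation with a median of 135 CPM, and 514, 722 and 650 CPM in juveniles, with no overlap between the 3 stages. It rose from settlement to the juvenile by a log2 fold change of 5.52 (SE 0.94, adjusted p = 0.000172, edgeR quasi-likelihood), and the juveniles were above all 3 adults, at 105, 50.9 and 92.9 CPM. A test of the difference between the number sets called 2 of the 27 members that could be tested (7.41%), against 1.68% of the 3858 gene models tested. These were Aqu2.1.31965_001 (log2 difference 8.76, SE 2.16, adjusted p = 0.0221, edgeR quasi-likelihood) and Aqu2.1.32505_001 (6.45, SE 1.58, adjusted p = 0.0221, edgeR quasi-likelihood). Neither was called when settlement replicate 8, 9 or 10 was left out, and both were called without libraries under 100000 counts. Aqu2.1.31965_001 was also not called with DESeq2, with the library total as a covariate or without settlement replicate 7.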

How the data were processed

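Single sponges were profiled by CEL-seq on polyadenylated RNA, per the labels' protocols. The authors deposited raw counts per gene model. The tools listed, with no role or order, are CASAVA 1.8, Bowtie2 2.1.0 and HTSeq 0.5.4p3, per the submitters' processing notes. Tool settings, genome build, annotation and use of molecular identifiers were not given in the sources used here. Only part of the table was held: 1 incomplete last line was left out, and 36868 gene models were used. All 124 columns matched an individual, and 0 other columns were present.

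Stages come from the labels. Replicates are numbered by embryo number within each stage, with no pairing. Levels are log2(CPM + 1) or CPM. Members and comparisons were chosen with earlier results of these data known.

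Tests used edgeR 4.0.16 in R 4.3.3 (two-sided quasi-likelihood test, TMM, filterByExpr with its default minimum) on 21 libraries from settlement to the juvenile, numbered 101 to 124, with adults left out of the fit. Adjusted p-values are Benjamini-Hochberg over all gene models tested. The libraries numbered 1 to 100 were fitted alone and, for the difference, together with the others. The procedure was tested on simulated data. Alternatives were DESeq2 1.42.0, its size factors, no filter, only the stages compared, library total as a covariate, leaving out libraries, a block for runs of 8 numbers, and other forms of the rule. Levels were computed in Python 3.11.15 with numpy 2.4.6 and pandas 2.3.3.

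Named gene models are the 2 with the largest margins, the 4 around the threshold, for each comparison at most 2 that rose and 2 that fell (largest fold changes with at least 20 CPM in the higher stage), and 2 each with the highest and lowest brown relative to cleavage. Others are said to be chosen after their values were seen. Totals ran from 1158 to 3059409 counts with a median of 642197; intervals and floors cover counting error only.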

Additional observations from a re-analysis of the deposited data

Results flagged for a closer look

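In stages of 4 to 10 libraries, 18 sets of values (the members' average and their share of counts) were searched for a library far from the rest, and chance flags about 1 in 20 groups. The share of counts on the 120 members was 0.142% in late ring replicate 7, far above the other 6 late ring libraries. It was 4.43% in settlement replicate 7, far above the other settlement libraries numbered 1 to 100. In both libraries Aqu2.1.31965_001 stood out, with 575 CPM in late ring replicate 7 and 37220 CPM in settlement replicate 7. The part of this 1 gene model in the shares is measured, but why it was high there was not tested.

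The library with no stage label was not used in any comparison. Its 23082 counts included 45 of the 120 members, which held 0.741% of the counts and averaged 2.55 on the log2(CPM + 1) scale.

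The change from settlement to mat-formation differed between the number sets for 2 members by edgeR's quasi-likelihood test, with a log2 difference of 8.76 for Aqu2.1.31965_001 and 6.45 for Aqu2.1.32505_001. Depth differs between the sets. Without libraries under 100000 counts both were still called, with log2 differences of 8.96 and 6.52. Over 9 alternatives, the call of Aqu2.1.31965_001 was lost in 7, and its log2 difference ran from 3.63 to 9.47. Among the 7 were DESeq2, the library total as a covariate and leaving out settlement replicate 7. The call of Aqu2.1.32505_001 was lost in 4, with log2 differences from 5.27 to 6.98. The part of depth was not tested.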

How the results depend on the processing

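The 48 members that rose from settlement to the juvenile became 56 with DESeq2, 44 without a filter on low counts, 42 with only these stages in the fit, 46 with each library's total as covariate, and 35 to 48 with single libraries left out. The 0 that fell became 1 without the filter. Over all gene models, the 1401 of 10182 that rose became 1650 of 10182 with DESeq2 and 1415 of 28985 without the filter. They became 1392 of 8263 with only these stages and 1397 of 10182 with the library total. The 12 that rose at mat-formation became 7 with only the 2 stages and 7 to 12 with single libraries left out. At chamber-formation the 17 that rose became 10 with only the 2 stages and 8 to 17 with single libraries left out, and DESeq2 gave 2 that fell. From chamber-formation to the juvenile the 6 that rose became 12 with DESeq2, 10 without the filter, 13 with only the 2 stages and 1 to 7 with single libraries left out. Counts over all gene models moved as well. At this last step the 152 of 10182 that rose became 290 of 10182 with DESeq2 and 200 of 28985 without the filter. They became 269 of 8417 with only the 2 stages and 65 of 10904 without chamber-formation replicate 1. The causes were not tested.

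In the libraries numbered 1 to 100, the 1 member that fell became 0 with DESeq2, with the library total as a covariate, without libraries under 100000 counts and without settlement replicate 7 (the last chosen after seeing the data), and 5 without the filter. The log2 fold change of Aqu2.1.31965_001 turned to 0.06 with DESeq2 and 0.14 with the library total. The 2 members that differed between number sets became 1 with DESeq2, with the library total or without settlement replicate 7, 3 without libraries under 100000 counts, and 0 without the filter or with any of the 3 settlement libraries left out (0 to 0).

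The rule kept 59 of the 120 with stage medians, 76 with pooled CPM, 76 with means within 0.5, and 60 when 60 were kept by construction. Dropping a cleavage library kept 95 to 107, and an adult library 94 to 97.

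A replicate block for the 3 runs of 8 numbers, whose meaning the labels do not give, gave 44, 12, 13 and 7 members that rose in the 4 comparisons and 0, 0, 1 and 3 that fell. Deviations in the same run had a median correlation of 0.00482, against -0.00827 between runs. Of 222 values of named members under the alternatives, 198 kept direction and call, 22 lost the call and 2 reversed. All libraries numbered 101 to 124 had over 100000 counts, so leaving shallow ones out gave no other value there. Stages of more than 5 libraries were not left out 1 by 1. Depth limits the libraries numbered 1 to 100, where 3 members could be tested.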
